A study of Rattus norvegicus with 12 samples.

Results

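Of 701 piRNA names listed in small RNA libraries of rat liver, 263 (37.5%) were found in some libraries and missing from others. They are called intermittent piRNAs here. Each had at least 1 read in 2 to 11 of the 12 libraries, at least 1 of them not taken at 48 hours, and 16 names that earlier work on these data had singled out were set aside by name, 9 of them listed in 2 to 11 libraries and 7 in all 12. The read counts themselves chose the names, so their levels are given as a description. Where a fit over all names called some of them, the number is printed beside that over all names and nothing is read from it. Apart from that fit, groups were tested only on names chosen in other libraries and on a measure not itself used in the choice. That measure is still bounded by the reads, and both tests were added after the data had been seen. Liver was taken from inbred rats (strain Fischer-344) that had been sham-operated (pre_PH, normal liver, 6 libraries) or were at 24, 48 and 168 hours after partial hepatectomy (2 libraries each). The labels do not say whether libraries of a group came from different animals, so all spreads quoted are between libraries and may be technical. They name no batch, so time after surgery and a preparation common to its 2 libraries cannot be told apart. The tables hold no messenger RNA, so markers of liver cells were not examined.

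PIWI-interacting RNAs are small RNAs that guide PIWI proteins, and they are best known for holding transposons silent in the germ line. After partial hepatectomy the cells of the remnant liver leave quiescence, replicate their DNA and rebuild the lost mass. A name in these tables says that a read was assigned to an entry of a piRNA database, not that the RNA was bound by a PIWI protein. Sequences and genome positions of the names were not used here, and names with near-identical sequences can share or split reads.

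The intermittent piRNAs were rare. Together they had 4078 reads among 2099300 listed piRNA reads, or 0.194%. The median was 7 reads per name over all 12 libraries, the range 2 to 207, and 107 names had 10 or more reads. Of the 1138 times that one of these names was listed in a library, 456 (40.1%) rested on 1 read. The 10 names with the most reads held 26.7% of the total.

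Most were seen in few libraries. A total of 82 names were listed in 2 libraries, 50 in 3, 38 in 4, 23 each in 5 and 6, and between 7 and 11 names at each number from 7 to 11 libraries. Names listed in more libraries had more reads, from a median of 3 reads (range 2 to 11) in names listed in 2 libraries to a median of 78 (44 to 207) in names listed in 11. Just outside the lower limit, the names with the most reads in 1 library were rno_piR_009750 with 5 reads and rno_piR_006700 and rno_piR_017491 with 4 each, all in 48h replicate 2. Just outside the upper limit, rno_piR_011462, rno_piR_025798 and rno_piR_009530 were listed in all 12 libraries with 62, 72 and 100 reads. Names listed in every library thus overlapped in abundance with the better-covered intermittent ones.

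**Figure D1:**
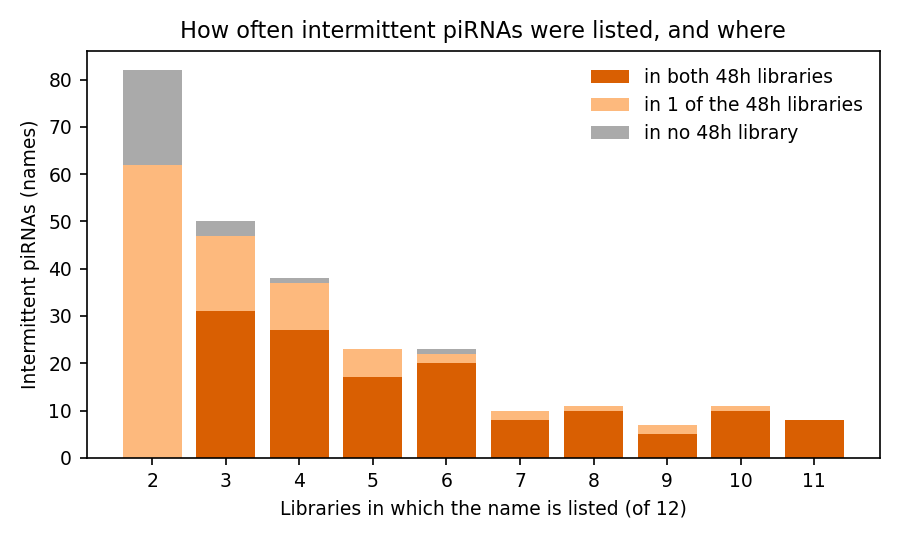
Number of intermittent piRNAs (y axis) by the number of the 12 libraries in which each was listed (x axis), with bars split by listing in both, 1 or none of the 48h libraries. The 82 names listed in 2 libraries form the tallest bar, and no name there was in both 48h libraries because the choice of names leaves those out.

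The 48h libraries listed more intermittent piRNAs than any other library. At 48h, 162 and 212 of the 263 names were found in replicates 1 and 2. In pre_PH the numbers were 78, 52, 88, 61, 126 and 93 in replicates 1 to 6 (83.0 ± 26.2, SD, n = 6). At 24h they were 56 and 55, and at 168h they were 62 and 93. Both 48h libraries lay above all 10 others, while the 24h and 168h libraries lay within the pre_PH range. The rise was not particular to these names. Over all 701 names, 387 were listed per library at 48h and 163.7 in pre_PH, a ratio of 2.36, and intermittent piRNAs made up 48.5% ± 1.31 (SD, n = 2) of the listed names at 48h and 49.7% ± 6.19 (n = 6) in pre_PH. In whole tissue, more cells that hold an RNA and more of it per cell cannot be told apart. The mean at 48h was 2.25 times that in pre_PH, and 2.06 to 2.63 times when any 1 library was left out and the names chosen again.

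Depth did not order these numbers across the groups. The 48h library with 162 names was the shallowest of all 12, with 120844 listed piRNA reads of the 20741811 library reads that the authors' percent implies. Its counterpart with 212 names had 251665 of 31467460. The deepest in listed piRNA reads, pre_PH replicate 3 at 351818, listed 88 names. Within pre_PH, however, names listed mostly rose with library reads, from 52 at 23555129 (replicate 2) to 126 at 28797822 (replicate 5). Only replicates 3 and 6, with 88 and 93 names at 28081618 and 28057089 library reads, were out of that order. The part of depth in the spread within pre_PH was not tested. At an equal 120844 listed piRNA reads, 162 and 166 names would be expected at 48h. The same expectation was 67.4 ± 25.5 in pre_PH (SD, n = 6, range 42.3 to 107), 55.7 and 43.1 at 24h and 61.0 and 86.2 at 168h. The 48h libraries also stood above the rest at an equal 20741811 library reads, with 162 and 186 names at 48h against 48.4 to 110 in pre_PH. At that depth 24h replicate 1, with 47.9 names, lay just below the pre_PH range.

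**Figure D2:**
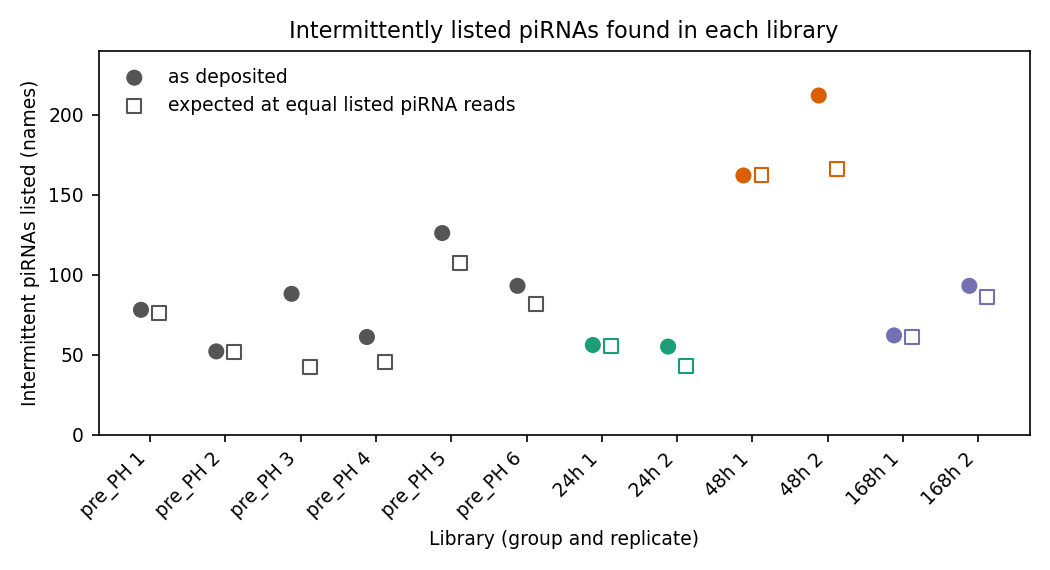
Intermittent piRNAs listed (y axis, number of names) in each of the 12 libraries (x axis), as deposited (filled circles) and at a common depth of 120844 listed piRNA reads (open squares). Both 48h libraries sit at 162 or above in either measure, above all pre_PH, 24h and 168h libraries.

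Summed reads separated the 48h libraries further. The 263 names had 904 and 1273 reads at 48h. They had 169, 132, 166, 123, 405 and 207 reads in pre_PH replicates 1 to 6, 141 and 99 at 24h, and 172 and 287 at 168h. Although the 48h libraries held 17.7% of all listed piRNA reads, they held 53.4% of the reads of these names.

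Levels are given in RPM, reads per 1000000, either of listed piRNA reads (piRNA RPM) or of all library reads (library RPM). The sums were 7481 piRNA RPM (95% Wilson interval 7010 to 7982) and 5058 (4789 to 5343) at 48h. In pre_PH they ran from 472 in replicate 3 (405 to 549) to 2302 in replicate 5 (2088 to 2537), with a mean of 1179 ± 659 (SD, n = 6). The values were 1149 and 539 at 24h and 1361 and 1954 at 168h, all inside the pre_PH range. The ratio of the 48h mean to the pre_PH mean was 5.32, with 4.35 to 6.54 over fits to 11 libraries, and 4.99 without the 5 names of most reads. The intervals cover counting error only, since PCR copies without molecular identifiers are not independent molecules.

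Against all library reads the 48h libraries agreed more closely with each other, at 43.6 and 40.5 library RPM. The pre_PH libraries had 4.98 to 14.1 library RPM, those at 24h had 4.82 and 4.32, and those at 168h had 5.55 and 10.4. On this scale both 24h libraries lay below the lowest pre_PH library, which they did not do in piRNA RPM. The sum at 24h was 0.716 of the pre_PH mean in piRNA RPM and 0.620 in library RPM. Without 24h replicate 1 the first ratio was 0.460, and without 24h replicate 2 it was 0.936.

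**Figure D3:**
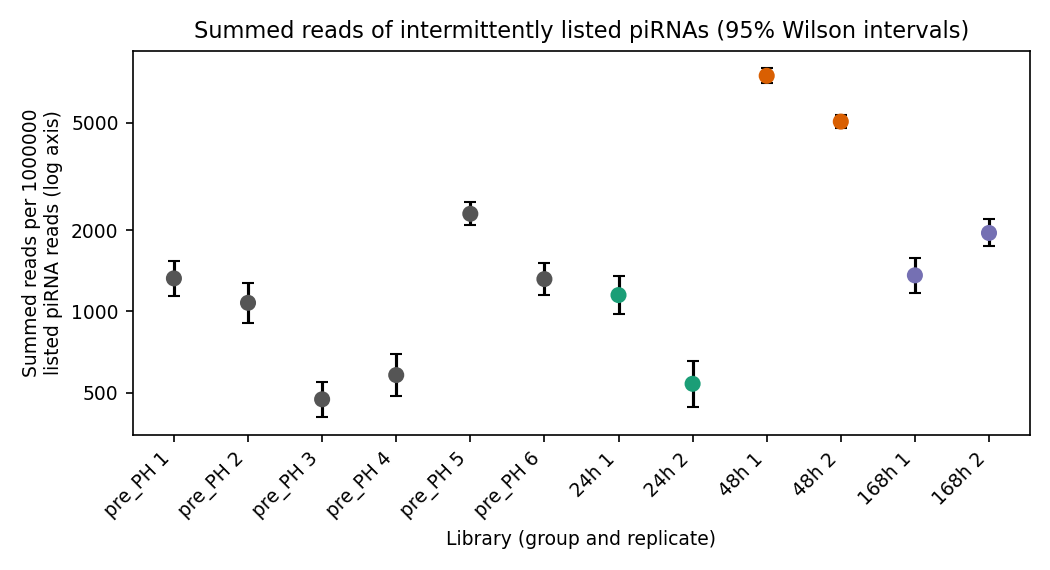
Summed reads of the intermittent piRNAs in piRNA RPM (y axis, log scale) in each library (x axis), with 95% Wilson intervals. The 48h libraries, at 7481 and 5058, stand above the 2302 of pre_PH replicate 5, the highest of the other 10 libraries.

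More names and more reads per name both contributed at 48h. Each listed name had on average 5.58 and 6.005 reads in the 48h libraries, against 1.89 to 3.21 in pre_PH, 2.52 and 1.8 at 24h and 2.77 and 3.09 at 168h. Names with 5 or more reads numbered 46 and 80 at 48h, 2 to 29 in pre_PH, 6 and 0 at 24h, and 8 and 14 at 168h. The share of listed names with 1 read was 27.8% and 28.8% at 48h and 39.7 to 63.6% in pre_PH. It also lay below the pre_PH range in both 168h libraries, at 35.5% each, and in 24h replicate 1, at 39.3%, while 24h replicate 2 had 52.7%. Among the 263 names, 101 had their highest rate in piRNA RPM in 48h replicate 1 and 55 in 48h replicate 2, and at most 19 peaked in any other library. In 68 names both 48h libraries exceeded the other 10. The counts chose the names, and the same numbers were not taken over all names, so nothing is read from these.

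The 48h libraries, whose lists were the longest, also had the most names in common. They had 136 names in common, 84.0% of those in replicate 1 and 64.2% of those in replicate 2. At 24h the libraries shared 18 names, 32.1% and 32.7% of their lists. At 168h they shared 30, which was 48.4% and 32.3%. Pairs of pre_PH libraries shared 25 to 56 names, between 28.6% and 69.2% of the list of either library, and 10 names were found in all 6. The 64.2% of 48h replicate 2 lay inside the pre_PH range. Longer lists share more names, and the part of list length in these shares was not tested. No closer agreement of the 48h libraries is read from them.

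By group, 238 of the 263 names (90.5%) were seen at 48h, 220 (83.7%) in the 6 pre_PH libraries, 125 (47.5%) at 168h and 93 (35.4%) at 24h. The pre_PH number pools 6 libraries and the others 2. The most frequent pattern was listing in pre_PH and at 48h and at neither other time, with 86 names and 543 reads. Names seen in all 4 groups numbered 46 and carried 2070 of the 4078 reads. A further 22 names were seen at 48h and 168h, 16 at 24h and 48h, and 12 in pre_PH alone.

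The choice of names could itself favour a group that lists many names, so the comparison was repeated with names chosen on pre_PH libraries alone. These were the 123 names listed in 2 to 5 of the 6 pre_PH libraries, 115 of them intermittent piRNAs as defined above. The libraries after hepatectomy played no part in that choice. Of the 123 names, 85 and 104 were found at 48h, 31 and 38 at 24h, and 40 and 55 at 168h. At equal listed piRNA reads the 48h libraries had 85.0 and 91.1 names and the 4 libraries of the other times 30.8 to 51.8. Their summed reads were 7605 and 4585 piRNA RPM at 48h and 441 to 1457 at the other times, a ratio of means of 6.38. Both 48h libraries were above all 4 others in each measure (two-sided exact permutation p = 0.0667, adjusted p = 0.0667 over 3 measures). With 15 splits of 2 against 4 libraries no smaller p could be reached, so the difference could not have passed 0.05. The test was added after the data had been seen, and its 3 measures rest on the same reads. No conclusion is drawn from its p. No test of this list against pre_PH was made, because pre_PH chose it.

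A second choice left only the 48h libraries out. Among 179 names listed in 2 to 9 of the other 10 libraries, 121 and 147 were found at 48h, with 1096 and 1469 reads. In pre_PH, which took part in that choice, 50 to 113 were found, with 127 to 399 reads. The mean at 48h was 1.71 times that in pre_PH in names listed and 6.39 times in summed piRNA RPM.

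Single names followed the sums unevenly. In 89 of the 263 names both 48h libraries exceeded all 6 pre_PH libraries in piRNA RPM, and 21 of these were unseen in pre_PH. The background over all 701 names was 20.7%. For no name were both 48h libraries below all pre_PH libraries (background 0.571%). At 24h, 2 names lay above (background 0.999%) and 4 below (1.28%), and at 168h, 7 lay above (3%) and none below (0.143%). Since the counts chose the names, nothing is read from the 33.8% of them at 48h. The shares at 24h (0.760% above, 1.52% below) and 168h (2.66% above) were close to the background.

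Few of the names had enough reads for a test of each. In a fit of all 12 libraries with edgeR's quasi-likelihood test, 80 names passed the filter on low counts, 11 of them intermittent. At 48h, 6 of the 11 were called higher than pre_PH and none lower at an edgeR adjusted p under 0.05, where the background was 33.8% higher and 12.5% lower. The counts tested also chose the names, and a name that is absent from some libraries tends to pass the filter only where 1 group lifts it, so nothing is read from these calls. Without 48h replicate 1, 0 of 18 intermittent names were called, against 4 higher and 15 lower of all 88 tested. Without 24h replicate 1 there were 16 higher and 1 lower (rno_piR_000906) of 38, against 34 higher and 15 lower of 108. Without 168h replicate 2 there were 23 higher of 38, against 43 higher and 9 lower of 108. At 24h edgeR called none of the 11 (background 1.25% higher and 1.25% lower), with 0 at an unadjusted p under 0.05 and 0 with DESeq2. At 168h it called none either (background 6.25% higher and 0% lower), with 2 at an unadjusted p under 0.05 and 0 with DESeq2.

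The name with the most reads was rno_piR_010458. Its reads were 68 and 86 at 48h, against 8, 10, 4, 0, 15 and 3 in pre_PH, 2 and 2 at 24h, and 1 and 8 at 168h. Both 48h libraries were above all others, and pre_PH replicate 4 was the library that kept the name from being listed in all 12. The pooled rate at 48h was 11.9 times that in pre_PH (exact 95% counting interval 8.33 to 17.2). This interval and those of the names below leave out the spread between libraries. For rno_piR_010458 the pre_PH rates alone ran from 0 to 85.2 piRNA RPM. The 68 and 86 reads came from only 5 and 6 distinct sequences.

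For rno_piR_028365 the libraries at 48h had 70 and 63 reads. The pre_PH libraries had 6, 8, 6, 0, 4 and 1, those at 24h had 5 and 2, and those at 168h had 0 and 2. The pooled ratio of 48h to pre_PH was 16.4 (10.6 to 26.2). Here the reads at 48h were spread over 17 and 24 distinct sequences, more than for rno_piR_010458 at a like number of reads.

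A similar profile was seen for rno_piR_030575, with 30 and 45 reads at 48h, 0 to 6 in pre_PH, 1 and 2 at 24h and none at 168h. Reads of rno_piR_010141 numbered 26 in each 48h library, 0 to 4 in pre_PH, 0 and 3 at 24h, and 0 and 3 at 168h. The pooled ratios to pre_PH were 14.4 (8.34 to 26.5) and 14.6 (7.50 to 30.9). In both names the groups did not overlap between 48h and the rest.

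Smaller ratios were found for rno_piR_025774 and rno_piR_007046. The first had 28 and 33 reads at 48h and 0 to 8 in pre_PH, 5 and 3 at 24h, and 3 and 6 at 168h (ratio 7.51, 4.65 to 12.5). The second had 24 and 23 reads at 48h and 0 to 12 in pre_PH, 0 and 4 at 24h, and 3 and 5 at 168h (ratio 6.03, 3.61 to 10.3). Neither overlapped between 48h and the other libraries in raw reads.

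Other well-covered names were less clearly set apart at 48h. For rno_piR_006964 the reads were 9, 12, 1, 3, 31 and 5 in pre_PH, 14 and 0 at 24h, 26 and 9 at 48h, and 3 and 2 at 168h, and each later group overlapped with pre_PH. At unequal depth its highest rate was in 48h replicate 1, at 215 piRNA RPM, followed by pre_PH replicate 5 at 176, and 48h replicate 2 was at 35.8. For rno_piR_007198 they were 1 to 9 in pre_PH, 2 and 0 at 24h, 13 and 34 at 48h, and 13 and 18 at 168h, and the mean rates at 48h and 168h were 121 and 113 piRNA RPM. Reads of rno_piR_013244 were likewise above pre_PH at both of these times, with 20 and 13 at 48h and 10 in each 168h library, against 0 to 8 in pre_PH and 0 and 4 at 24h. In piRNA RPM the 48h libraries had 166 and 51.7 and the 168h libraries 79.1 and 68.1. The highest pre_PH library, replicate 6, had 50.9, so 48h replicate 2 was barely above it. The reads of rno_piR_008114 at 48h, 12 and 28, overlapped with the 14 of pre_PH replicate 5. Its rates did not, with 99.3 and 111 piRNA RPM at 48h, 79.6 in pre_PH replicate 5 and at most 23.5 in the other libraries.

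The remaining names listed in 11 libraries were each missing from 1 library other than 48h. Those were 24h replicate 1 for rno_piR_005296, 168h replicate 2 for rno_piR_008315 and rno_piR_021993, and pre_PH replicate 1 for rno_piR_011544. Their reads were 10 and 19, 15 and 14, 5 and 19, and 13 and 8 at 48h, in that order, against 1 to 6, 1 to 4, 1 to 7 and 0 to 4 in pre_PH. A missing listing does not show that such a name was absent, since 0 reads allow a level of up to 3 reads, or 8.53 to 24.8 piRNA RPM depending on the library.

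Among names with at least 10 reads, the mean rate at 48h exceeded that of the next group most in rno_piR_032449 (36.0 times), rno_piR_010733 (17.6) and rno_piR_024132 (17.3), close to the 15.7 of rno_piR_028365 and the 15.6 of rno_piR_010141. For rno_piR_032449 there were 2 and 13 reads at 48h and 1 read in all other libraries together, in pre_PH replicate 5, a ratio to pre_PH of 46.2 with a counting interval of 7.11 to 1944. Reads of rno_piR_010733 were 18 and 11 at 48h, 0 to 2 in pre_PH, 0 and 1 at 24h and none at 168h (ratio 14.9, 6.07 to 43.8). Reads of rno_piR_024132 were 7 and 5 at 48h and 1 each in pre_PH replicates 1 and 5 (ratio 18.5, 4.11 to 170). The intervals of the first 3 overlap, so their order is not resolved.

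Some names went another way. In pre_PH rno_piR_000906 had 7, 9, 2, 2, 2 and 1 reads, with none at 24h, 1 and 0 at 48h, and 3 and 2 at 168h. All 6 pre_PH libraries listed it and 1 of the 48h libraries did. Its 9 reads in pre_PH replicate 2 were copies of 1 sequence. The others highest in pre_PH, rno_piR_007525 and rno_piR_000363, had 14 and 10 reads there, of which pre_PH replicate 5 held 8 and 5.

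At 24h rno_piR_000975 had 14 and 2 reads against 0 to 5 in pre_PH, with 3 and 6 at 48h and 7 and 3 at 168h, so that replicate 1 alone stood out. For rno_piR_006711 the 24h libraries had 6 and 1 reads, or 48.9 and 5.44 piRNA RPM, and pre_PH replicate 5 had 6 reads, or 34.1. For rno_piR_005409 they had 3 and 2 reads, or 24.5 and 10.9 piRNA RPM, and pre_PH replicate 6 had 4 reads, or 25.5.

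At 168h rno_piR_038396 had 46 reads in replicate 2 and 2 in replicate 1, and 8 reads in all other libraries together. Those 46 reads came from 2 distinct sequences, and the replicates of that time did not agree. More even were rno_piR_008668, with 7 and 3 reads at 168h, and rno_piR_013692, with 6 and 3. Neither was listed at 24h or 48h, and in pre_PH they had 0 to 5 and 0 to 2 reads. Together with rno_piR_009696, which had 5 reads in 168h replicate 2 and 3 in pre_PH replicate 5, they were the best-covered of the 25 names not seen at 48h.

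Names not seen in pre_PH numbered 43. The best-covered was rno_piR_007888, with 4 and 2 reads at 24h, 3 and 6 at 48h, and 2 and 1 at 168h. It was thus listed in all 6 libraries after hepatectomy and in none of the 6 pre_PH libraries. It was picked out by its reads from 263 names. With pre_PH set at the 3 reads that a count of 0 allows over the whole group, its 48h rate was 9.24 times as high. The counting error of its 9 reads at 48h is left out, so 9.24 is not a lower limit. For rno_piR_038438 the reads were 4 and 0 at 24h and 7 and 1 at 48h, and for rno_piR_005513 they were 0 and 2 at 24h and 0 and 9 at 48h. In these the reads came mostly from 1 library.

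**Figure D4:**
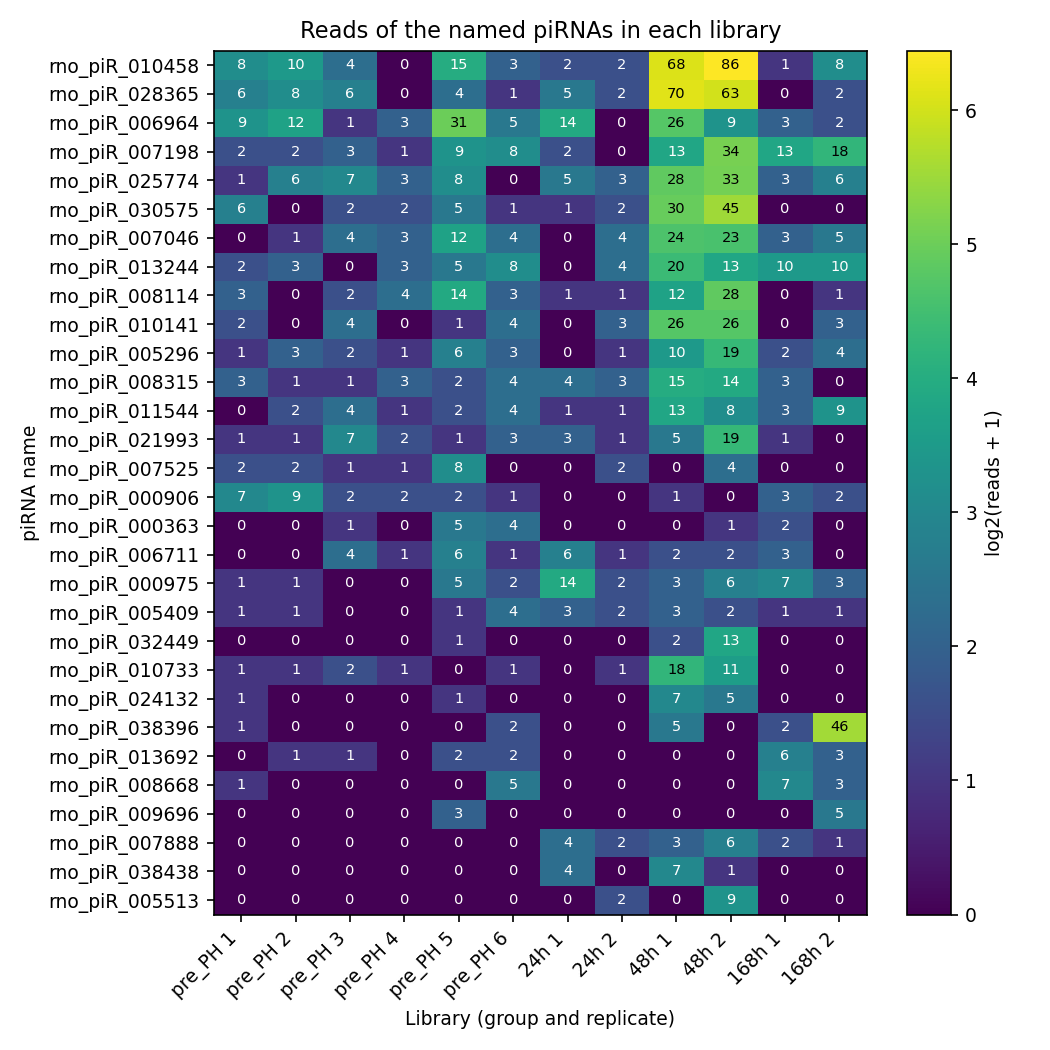
Reads of the named intermittent piRNAs (rows) in each library (columns), coloured by log2(reads + 1) with the read count in each cell. The 48h columns are the brightest for the upper rows, while rno_piR_038396 is bright in 168h replicate 2 only, at 46 reads.

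The number of distinct read sequences behind a name was not used to choose it, but it cannot exceed the reads that did. The names with 2 to 10 reads also differ between libraries. Among intermittent piRNAs with 2 to 10 reads in a library, there were 67.3 and 76.9 distinct sequences per 100 reads at 48h. In pre_PH there were 51.1, 39.6, 68.2, 55.8, 56.2 and 59.1 in replicates 1 to 6 (55.0 ± 9.45, SD, n = 6). At 24h there were 46.2 and 57.1, and at 168h 48.2 and 54.2. The 48h libraries were the highest with the exception of pre_PH replicate 3, which lay between them. The difference from pre_PH, 17.1 at 48h, did not pass (two-sided exact permutation p = 0.107, adjusted p = 0.321 over 3 times), and with 28 splits the smallest adjusted p for 1 time alone was 0.107. The differences at 24h and 168h were -3.36 and -3.82 (exact permutation adjusted p = 0.714 for each).

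Names that rested on copies of 1 sequence had their lowest share in the 48h libraries, a pattern noticed in the data and not tested. Of intermittent piRNAs with 2 to 10 reads, 10.9% to 20.4% had all their reads from 1 sequence in the 48h libraries. The range was 31.3 to 63.6% in pre_PH, 53.8 to 75.0% at 24h and 46.6 to 56.4% at 168h. Reads per listing also differed between libraries, and their part in these shares was not tested. At exactly 2 reads, the distinct sequences per 100 reads of intermittent piRNAs were 74.2 and 82.9 at 48h and 55.9 to 75.0 in pre_PH. In the 61 names listed in all 12 libraries, taken at the same 2 to 10 reads, the distinct sequences per 100 reads were 54.9 ± 10.97 at 48h (SD, n = 2) and 54.6 ± 6.70 in pre_PH (n = 6). The comparison in those 61 names rests on 16 listings at 48h, compared with 217 of intermittent piRNAs, and the difference between the lists was not tested.

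**Figure D5:**
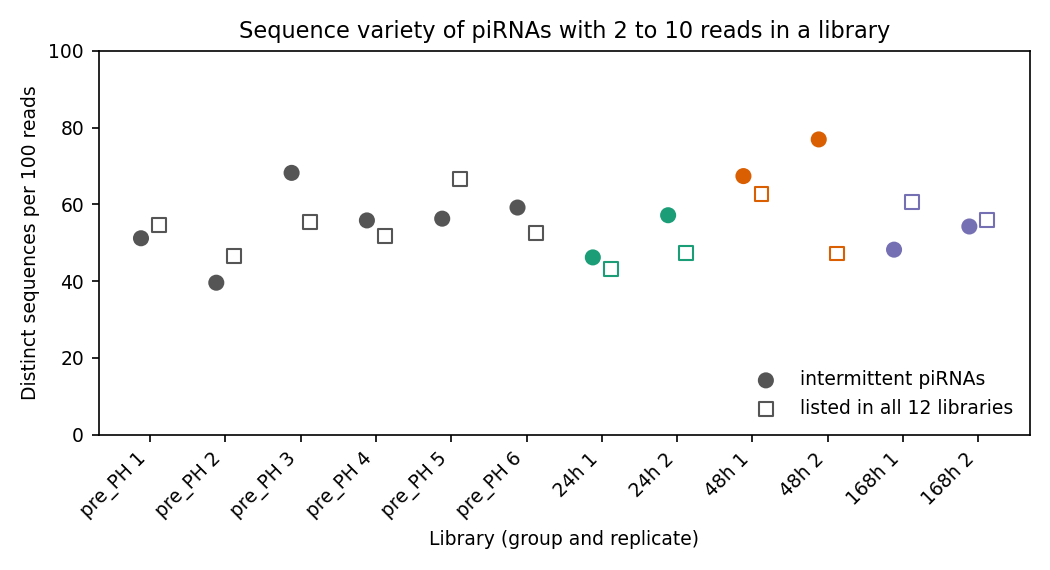
Distinct read sequences per 100 reads (y axis) among names with 2 to 10 reads in a library (x axis), for intermittent piRNAs (filled circles) and names listed in all 12 libraries (open squares). Intermittent piRNAs reach 67.3 and 76.9 at 48h, and pre_PH replicate 3 lies between these at 68.2.

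The other sets of names were also chosen on these reads, and their values are a description. The 335 names listed in 1 library had 713 piRNA RPM at 48h on average and 121 in pre_PH, a ratio of 5.91 beside the 5.32 of the intermittent piRNAs. The 16 names set aside had 14738 and 14773 in sum, although edgeR called 12 of them higher and 1 lower at 48h. Of these 16, 7 are also among the 61 names listed in all libraries, so the sums and calls of these sets are not separate. The 61 names listed in all libraries had 990786 and 998635, nearly the whole of the listed reads, so this sum can hardly move on this scale. Of the 60 of them that were tested, edgeR called 12 higher and 10 lower at 48h. In library RPM, the 61 names had 6850 at 48h and 7126 in pre_PH, while the intermittent piRNAs had 42.0 and 7.38.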

How the data were processed

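Small RNA libraries of rat liver were listed by the authors as 1 table per library. Each deposited table gives a read count per piRNA name and a count of distinct read sequences, with no normalization per the file headers. The authors also deposited each read count in normalized form. From the column names these values were taken as a percent of library reads and of reads mapped to piRNAs, and the library totals rest on that reading. CASAVA 1.8, cutadapt, DESeq 1.14.0 and build rn4 stand in the submitters' processing notes without a role, and for the aligner, the mismatches and the treatment of shared reads the sources used here give nothing. A name absent from a table was counted as 0.

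Library totals are the read count divided by the authors' percent. Listed reads were 99.2% to 99.9% of the mapped total. Expected numbers at equal depth were computed exactly from the hypergeometric distribution (Python 3.11.15, scipy 1.17.1). The test across names used edgeR 4.0.16 (R 4.3.3, TMM, filterByExpr, robust quasi-likelihood F-test, Benjamini-Hochberg over 80 names), all 12 libraries and 4 groups in 1 fit; DESeq2 1.42.0 was an alternative. Scaling factors ran from 0.480 to 1.51. Rates of names use listed piRNA reads. None of the 18 pairs of libraries within a group agreed within sampling noise (chi-square).

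The names, lists and comparisons were chosen with earlier results of these data known. Named were the 10 names with the most reads, those listed in 11 libraries, the 3 with the largest ratio of each group to the next (at least 10 reads, listed in at least 2 libraries of that group), the 3 best-covered names absent at 48h or from pre_PH, names called by edgeR, and 3 on either side of the limits. Added after the data had been seen were the comparison of distinct sequences, the names chosen without the 48h libraries, and the summed reads and test of the names chosen on pre_PH libraries.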

Additional observations from a re-analysis of the deposited data

Results flagged for a closer look

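Within the 6 pre_PH libraries, replicate 5 stood apart from the others in summed reads of the intermittent piRNAs. It had 405 reads, with the next library at 207, and 14.1 library RPM, with the next at 7.38. It was not apart in this sense in piRNA RPM, nor in the number of names listed. The same library was far above the other pre_PH libraries for rno_piR_006964 (31 reads), rno_piR_008114 (14), rno_piR_007046 (12), rno_piR_007525 (8), rno_piR_009696 (3) and rno_piR_032449 (1), the last 2 of which were at 0 in the other 5.

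Single pre_PH libraries also lay far from the rest for rno_piR_005409 (4 reads in replicate 6), rno_piR_008668 (5 in replicate 6) and rno_piR_021993 (7 in replicate 3). In all 36 values were examined, and chance sets apart about 1 in 20 such groups. Read counts this small take few distinct values, which widens gaps relative to a range.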

How the results depend on the processing

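Counting a name as listed only from 2 reads left 145 intermittent piRNAs, and 220 to 257 remained when any 1 library was left out. With names chosen on pre_PH libraries alone, names listed per library at 48h were 1.53 times pre_PH, a smaller ratio by construction, since pre_PH then had to list them. The other ratios of names listed and of summed reads moved by less than the spread between libraries under every alternative run. One came close to that limit. With names chosen on the libraries other than 48h, names listed per library at 48h were 1.71 times pre_PH, against 2.25 as reported. Leaving out 1 library gave ratios of names listed of 0.625 to 0.749 at 24h, 2.06 to 2.63 at 48h and 0.750 to 1.12 at 168h, and ratios of summed reads of 0.460 to 0.936, 4.35 to 6.54 and 1.16 to 1.72. Differences in distinct sequences per 100 reads then ran from -8.86 to 2.13 at 24h, 12.3 to 21.9 at 48h and -6.91 to -0.80 at 168h.

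Intermittent piRNAs called at 48h by edgeR, or by DESeq2 where named, all higher, numbered 10 with scaling to listed piRNA reads (31 higher and 2 lower of all 80 names tested), 10 with scaling to library totals (33 and 8 of 80), 9 with DESeq2 (30 and 11 of 80) and 3 with no filter on low counts (17 and 8 of 701), against 27 and 10 of 80 as reported. The median log2 difference of all tested names at 48h was 0.09 as reported, 0.77 with scaling to listed piRNA reads and 0.83 with library totals. The calls numbered 0 to 23 with 1 library left out, where names called higher over all names ran from 4 to 43. At 168h there was 1 call, rno_piR_038396, with no filter, and 0 to 1 with 1 library left out. At 24h there were 0 under all alternatives. Where 1 library of a time is left out the filter asks for fewer libraries and admits more names, and the remaining library is assumed to vary like the other groups. The cause of the other changes was not tested. Same-numbered libraries after hepatectomy share only a number, with deviations correlated at 0.21, 0.09 and -0.10, and a replicate block over them gave 5 calls at 48h, 0 at 24h and 0 at 168h. With 40.1% of listings resting on 1 read, depth limits what any library can list.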
